A study of Drosophila melanogaster with 15 samples.

Results

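The baseline transcriptome of uninjured adult astrocytes was taken from the 5 uninjured samples among the 15 samples of a *Drosophila* study of traumatic brain injury (TBI), and it is described here across genes, with no injury contrast. The study sorted astrocytes from uninjured brains and from brains taken 4 hr or 24 hr after TBI, with 5 biological replicates in each group. All flies carried *R86E01-Gal4*, a driver used for astrocytes, and *UAS-Redstinger*, a red fluorescent reporter, and their genotype is labelled WT. The flies were kept at 25°C on cornmeal medium and, as the treatment protocol gives it, were 3 days past eclosion when they entered the experiment, about 50 brains were pooled for a group, and 1600 red cells were sorted per sample and amplified with Smart-seq2, a method that primes on poly(A) tails. The sort selected whatever cells expressed the driver, so each value is an average over all cells that passed the gate. Transcript abundance is given as TPM, in which reads are divided by gene length and scaled to the same total in each sample, so that levels of different genes can be compared. Fewer cells that express a gene and less RNA per cell cannot be told apart in such bulk samples.

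Fly astrocytes send fine processes into the neuropil, where synapses lie. They are known for taking up glutamate and GABA after release, for turning glutamate into glutamine, and for buffering ions. In other work they have also been described as responding to monoamines, engulfing debris and secreting factors that act on synapses. Their identity depends on the glial homeodomain protein Repo, and many of them also contain the homeodomain protein Prospero.

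The table listed 17509 genes, of which 10980 had a mean TPM above 0 and 6529 were listed at 0 in all 5 samples. A TPM of at least 1 in all 5 samples, the threshold for detection used throughout, was reached by 5803 genes. Among nuclear protein-coding genes it was reached by 5602 of 13848, or 40.5%, and the median of the mean TPM over those 13848 genes was 1.06. These values serve as the background for each gene list. The number of genes at a TPM of at least 1 ranged from 6963 to 7364 per sample. Pearson correlation of log2(TPM + 1) over 10966 nuclear genes was 0.93 to 0.94 for the 10 pairs of replicates, as a description over genes, which are not independent. No pair of replicates had the same TPM above 0 at more than 50 genes, so the 5 samples were counted separately. The TPM table does not give the number of reads behind each sample, so no counting error is given, and the precision of a value rests on the replicates.

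Transcripts of the mitochondrial genome took 32.7% to 51.8% of TPM, led by *mt:lrRNA*, the large ribosomal RNA of mitochondria, with a mean of 180625 TPM. Replicate 3 had the lowest mitochondrial share, and it was the highest sample for 21 of the 30 nuclear genes with the highest means. When TPM was rescaled without the mitochondrial genome, it was the highest for 8 of the 30.

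A small number of genes dominated the nuclear transcriptome. The 10 highest held 27.1% ± 1.85 (SD, n = 5) of nuclear TPM and the 100 highest held 50.9% ± 1.37 (SD, n = 5), whereas 66 nuclear genes had a mean of at least 1000 TPM, 750 of at least 100 and 4302 of at least 10. Genes known from astrocytes stood among the highest, together with several that have no name beyond a CG number, which made up 7 of the 30 highest and 24 of the 100 highest. Of the 30 highest, 29 were protein-coding.

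**Figure D1:**
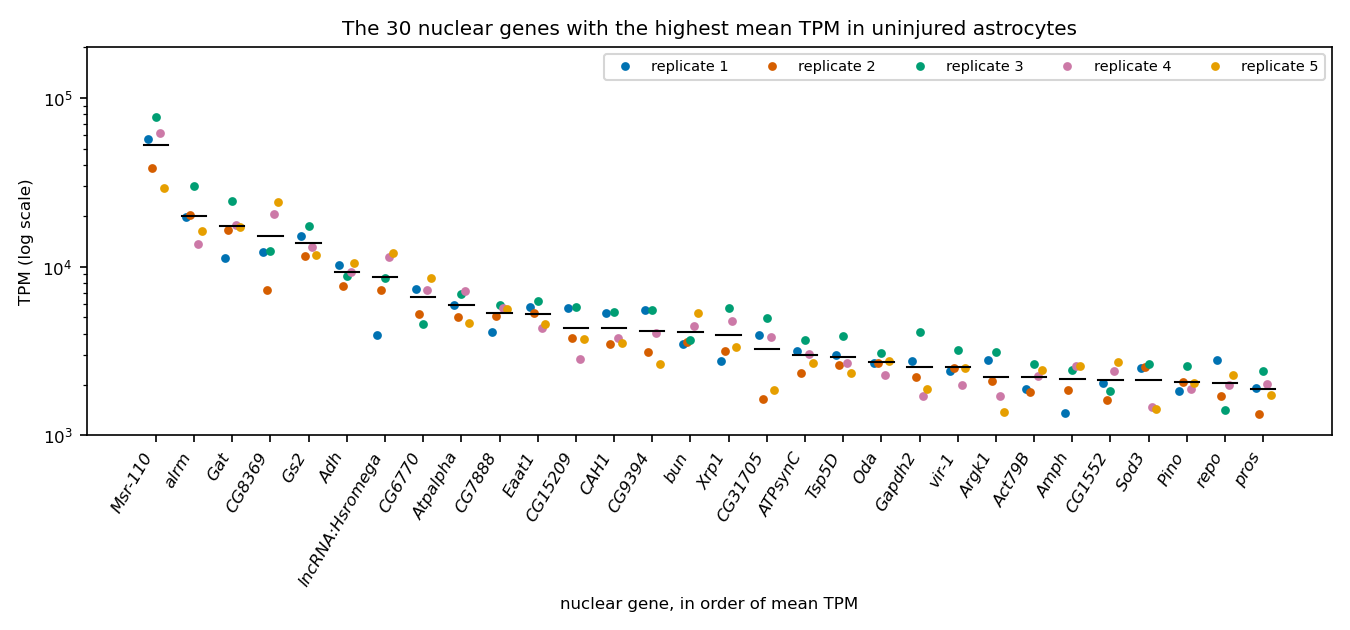
TPM on a log axis for the 30 nuclear genes with the highest mean TPM, ordered by mean, with a point for each of the 5 uninjured replicates and a black line at the mean. *Msr-110* leads with 29281 to 76896 TPM, the 4 astrocyte markers *alrm*, *Gat*, *Gs2* and *Eaat1* lie between 4349 and 30075 TPM, and the green points of replicate 3 are the highest for 21 of the 30 genes.

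The highest nuclear gene was *Msr-110* (FBgn0015766), at 3L:5566919-5577348 on the minus strand of the BDGP6.54 annotation, whose coordinates are those of dm6. Its TPM was 57188, 38430, 76896, 61813 and 29281 in replicates 1 to 5, a mean of 52721 ± 18979 (SD, n = 5). It thus held 9.13% ± 2.53 (SD, n = 5) of nuclear TPM and was above *alrm*, the next gene, in 5 of 5 samples, although the ranges of the genes overlapped.

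*alrm* (FBgn0039332; 3R:25381065-25382781, minus strand) encodes a leucine-rich repeat membrane protein that gives astrocytes their most used driver. Its TPM was 19621, 20084, 30075, 13609 and 16230, with a mean of 19924 ± 6259 (SD, n = 5), the ninth highest level of the table and the second of nuclear genes. *Gat* (FBgn0039915; 4:629691-635350, plus strand), the plasma membrane GABA transporter, had 11215, 16502, 24460, 17740 and 17065 TPM, with a mean of 17396 ± 4721 (SD, n = 5). The order of these genes was not stable, since *alrm* was above *Gat* in 3 of 5 samples.

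*Gs2* (FBgn0001145; X:11422832-11430197, plus strand), a glutamine synthetase that joins ammonia to glutamate, had 15142, 11631, 17476, 13004 and 11695 TPM, with a mean of 13789 ± 2504 (SD, n = 5). *Eaat1* (FBgn0026439; 2L:9333567-9341925, plus strand), the high-affinity glutamate transporter of astrocytes, had 5791, 5325, 6275, 4349 and 4559 TPM, with a mean of 5260 ± 812 (SD, n = 5). All 4 markers were thus among the 11 highest nuclear genes. *Gs2* was above *Eaat1* in 5 of 5 samples without overlap, by a median ratio of 2.61. Together the 4 genes took 5.64% ± 1.24 (SD, n = 5) of TPM, with 7.83% in replicate 3 and 4.87% to 5.35% in the others. As a share of nuclear TPM they took 11.6% in replicate 3 and 8.38% to 11.1% in the others.

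Between these markers stood genes of more general or less known function. *CG8369* had 12153, 7225, 12373, 20522 and 24001 TPM, and no role is given here for it. *Adh*, alcohol dehydrogenase, had 7649 to 10436 TPM, but 93.9% of its exonic bases are shared with exons of *Adhr*, and reads of these genes may not be separable. The noncoding RNA *lncRNA:Hsromega*, which organizes nuclear stress speckles, had 3936 to 11981 TPM and was the highest noncoding nuclear gene.

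*CG7888*, for which the annotation gives SLC36, a family of proton-coupled amino acid transporters, as a synonym, had a level next to that of *Eaat1*. Its TPM was 4081, 5100, 5893, 5693 and 5613, and it was above *Eaat1* in 2 of 5 samples. *CAH1*, a carbonic anhydrase that interconverts carbon dioxide and bicarbonate, had 3475 to 5374 TPM, with 76.6% of its exonic bases shared with *Adat1*. *bun*, the fly homologue of TSC-22 regulators, had 3458 to 5321 TPM, and *Xrp1*, a bZIP stress regulator, had 2743 to 5720 TPM. *Tsp5D*, a tetraspanin, followed at 2335 to 3882 TPM, and *Oda*, an antizyme that limits polyamine synthesis, was the most even of the 30, at 2287 to 3094 TPM, with 14.8% of its exonic bases shared with an antisense RNA. Of 29 neighbouring pairs in this order, 1 pair (*Gs2* above *Adh*) did not overlap, and in 3 the order held in all 5 samples. The ranks of single genes are therefore approximate.

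The remaining genes of the 30 included several with no name. *CG6770* had 7386, 5232, 4597, 7293 and 8612 TPM, and replicate 3 was its lowest sample. *CG15209* had 2823 to 5724 TPM, with 37.8% of its exonic bases shared with *CG32669*, *CG9394* had 2661 to 5551 TPM, *CG31705* had 1644 to 4932 TPM and *CG1552* had 1616 to 2738 TPM. No role is given here for these genes. *ATPsynC*, the ring subunit of the mitochondrial ATP synthase, had 2331 to 3659 TPM, *Argk1*, arginine kinase, which buffers ATP, had 1381 to 3105 TPM, and *Amph*, amphiphysin, which shapes membranes, had 1359 to 2573 TPM. *vir-1*, a gene named for its induction by virus, had 1990 to 3207 TPM and *Pino* had 1821 to 2571 TPM.

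Markers of other brain and body cells were low in sum. Of 55 such markers of 8 cell types, 12 (21.8%) reached a TPM of at least 1 in all 5 samples. That share was 40.5% over all nuclear protein-coding genes. Listed at 0 in all 5 were 17 markers (30.9%), close to the 28.5% of those genes. The summed level of the 55 markers was 0.073% to 0.118% of TPM, against 4.87% to 7.83% for the 4 astrocyte markers. The markers were chosen with earlier results of these data known, so these sums are a description and no measure of purity. What part cells of other types have in the levels given here was not tested.

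Neuronal markers were present at a low level. The 13 genes together took 0.0025% to 0.0064% of TPM, and 3 of them reached a TPM of at least 1 in all 5 samples. The highest was *elav*, an RNA-binding protein of neurons, with 17.2, 8.43, 14.2, 24.9 and 13.8 TPM, and 34.2% of its exonic bases are shared with a noncoding RNA. *nSyb*, the synaptic vesicle synaptobrevin, had 11.4, 10.8, 2.69, 6.37 and 1.85 TPM.

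Some genes used as markers of other glia were higher. *Cyp4g15*, a cytochrome P450 used for cortex glia, had 210 to 631 TPM and *zyd*, a potassium-dependent sodium and calcium exchanger of cortex glia, had 78.7 to 134 TPM, while *wrapper*, their cell surface marker, had 0.06, 0, 0.96, 6.02 and 0.1 TPM. *rumpel*, an SLC5-type transporter of ensheathing glia, had 173 to 283 TPM, while *Eaat2* had 4.3 to 11.9 TPM and *axo* had 1.72 to 4.22 TPM. The genes of each list were thus far apart. The 3 cortex glia genes had a median of 104 TPM and the 3 ensheathing glia genes one of 8.14 TPM, against 1.06 TPM over all nuclear protein-coding genes. Of surface glia, the sugar transporter *Tret1-1* had 20.5 to 39.1 TPM and the receptor *moody* had 7.82 to 29.9 TPM, while the transporter *Mdr65* and the junction protein *Gli* were listed at 0 in all 5.

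Most markers of photoreceptors and of cells from outside the nervous system were at or near 0 TPM. Hemocyte markers were listed at 0 in 4 of 6 cases, and none reached a TPM of 1. Of 7 fat body genes only *apolpp*, the lipid carrier of the hemolymph, was detected in all samples, at 15.0 to 33.8 TPM. Of 11 photoreceptor genes only *norpA*, a phospholipase C, was detected in all samples, at 45.5 to 71.9 TPM, and the major opsin *ninaE* had a mean of 0.026 TPM. None of the 7 muscle genes of the list was detected in all samples. *Act79B*, an actin gene known from muscles and not on that list, was among the 30 highest nuclear genes, at 1798 to 2648 TPM. The flight muscle gene *fln*, also not on it, had a mean of 2.50 TPM, with 61.6% of its exonic bases shared with *asRNA:CR45161*, which had 289 to 502 TPM.

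**Figure D2:**
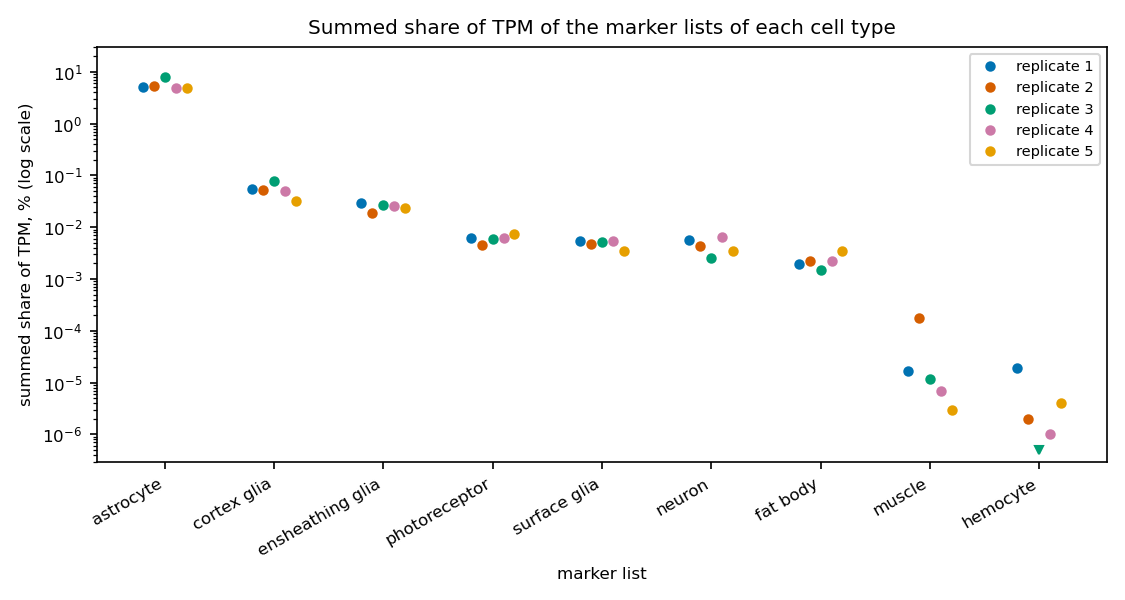
Summed share of TPM, in percent on a log axis, of the marker list of each cell type, with a point for each of the 5 uninjured replicates and a triangle at the lower edge for a share of 0. The astrocyte list lies at 4.87% to 7.83%, the cortex glia list at 0.032% to 0.077%, and the neuron list at 0.0025% to 0.0064%.

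The transporter list showed a steep order. Of 77 transporters, 38 (49.4%) reached a TPM of at least 1 in all 5 samples, against 40.5% of all nuclear protein-coding genes. Listed at 0 in all 5 were 15 (19.5%), against 28.5% of those genes, and gene length was not matched. The median of the mean TPM of the transporters was 3.76. *Gat* alone held 54.6% of the summed level of the list, and *Gat*, *Atpalpha* and *Eaat1* together held 89.8%. High levels were thus a property of a few listed transporters rather than of the list. *CG7888*, given above, was not on the list and does not enter these shares.

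Transcripts for transmitter uptake were mostly those of the GABA and glutamate carriers. After *Gat* and *Eaat1* came *ine*, a member of the same family as *Gat*, with 387, 327, 507, 398 and 255 TPM. *SerT*, the serotonin transporter, had 18.4, 16.8, 11.3, 11.4 and 11.5 TPM, while *DAT*, the dopamine transporter, was above 0 in 1 sample only, at 0.8 TPM. *Vmat*, the vesicular monoamine transporter, and *prt* were listed at 0 in all 5. *Eaat1* was above *Eaat2* in 5 of 5 samples, at 447-fold to 1011-fold, the largest ratio being in replicate 4.

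The ion transporters included the sodium pump. *Atpalpha*, its catalytic subunit, had 5932, 5024, 6893, 7181 and 4631 TPM, with a mean of 5932 ± 1118 (SD, n = 5). Of its beta subunits, *nrv2* had a mean of 1044 ± 155 (SD, n = 5), *nrv3* had 24.1 to 77.5 TPM, and *nrv1* had at most 0.29 TPM. *nrv2* was above *nrv3* in 5 of 5 samples without overlap, by a median ratio of 34.2. *Irk2*, an inwardly rectifying potassium channel, had 409, 435, 764, 642 and 442 TPM and was above *Irk3* in 5 of 5 samples. The chloride channel *ClC-c*, the calcium pumps *SERCA* and *PMCA* and the cotransporter *kcc* had means of 82.1, 98.8, 75.9 and 21.1 TPM, and exonic bases are shared with another gene for 16.0% of *SERCA* and 40.5% of *PMCA*.

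Sugar and monocarboxylate carriers were led by 2 relatives, *rumpel* with a mean of 236 ± 41.2 (SD, n = 5) and *bumpel* with 95.7 TPM, and their relative *kumpel* had 3.91 to 34.3 TPM. *Glut1*, a glucose transporter, had 0.71, 2.14, 0, 2.41 and 0.21 TPM. The monocarboxylate carrier *chk* had a mean of 1.59 TPM, all of its exonic bases being shared with *CG45092*, and *Sln* was listed at 0 in all 5. Among amino acid carriers of the list, *mnd* (33.9 to 76.5 TPM) and *CD98hc* (23.4 to 54.9 TPM), the light and heavy chains of an exchanger of large neutral amino acids, and *List* (a mean of 39.1 TPM) were highest. These lay far below *CG7888*, which was not on the list. Among the remaining transporters the nucleoside carrier *Ent1* was the highest, with 48.0 to 105 TPM and 79.9% of its exonic bases shared with an antisense RNA.

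The listed enzymes were detected more often than the listed transporters. The lists were chosen with earlier results of these data known, so these shares describe the listed genes and not the whole classes. Of 70 listed enzymes in the table, 53 (75.7%) reached a TPM of at least 1 in all 5 samples, against 40.5% of all nuclear protein-coding genes. Listed at 0 were 5 (7.14%), against 28.5% of those genes, and gene length was not matched. The median of the mean TPM of the enzymes was 30.8. *Gs2* held 40.7% of their summed level.

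In the pathway of GABA, the transaminase *Gabat* had 251, 262, 348, 217 and 229 TPM, and *Ssadh*, the dehydrogenase that follows it, had 194, 137, 209, 98.3 and 101 TPM. *Gad1*, the enzyme that makes GABA in neurons, was listed at 0 in 4 samples and had 9.98 TPM in replicate 4. The breakdown enzymes were above 0 in 5 of 5 samples and *Gad1* in 1 of 5.

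In the pathway of glutamate, *Gs2* was accompanied by the aspartate aminotransferases *Got2*, the mitochondrial form, at 144 to 188 TPM, and *Got1*, at 36.9 to 98.4 TPM. *Gdh*, glutamate dehydrogenase, had 3.47 to 7.25 TPM, below *Got2* in 5 of 5 samples. *Gs1*, the mitochondrial glutamine synthetase, had 5.12, 0.21, 0, 0.17 and 0.62 TPM. Of enzymes of amines, *e* (ebony), which joins beta-alanine to histamine and dopamine in glia, had 699, 664, 843, 491 and 296 TPM, while *t* (tan), which reverses that step, was listed at 0 in all 5, and *ple*, *Ddc* and *Hdc*, which make amines, had means of 0.392, 3.19 and 0.034 TPM. *Ace*, acetylcholinesterase, had 73.5 to 119 TPM.

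Glycolysis was present from end to end. Of 21 genes of glycolysis, trehalose, glycogen and lactate metabolism, 18 (85.7%) reached a TPM of at least 1 in all 5 samples. That share was 40.5% over all nuclear protein-coding genes. The median of the 21 genes was 124 TPM. *Treh*, trehalase, which splits the blood sugar of insects into glucose, had 1062 to 1455 TPM, with 12.8% of its exonic bases shared with *Rbpn-5*. *Gapdh2* had 2757, 2204, 4092, 1722 and 1886 TPM and was above *Gapdh1* in 5 of 5 samples, by a median ratio of 1.77. *Ald1*, *Tpi* and *Pglym78* had means of 501, 497 and 499 TPM. *Pfk*, which commits sugar to glycolysis, was the lowest of the linear steps, at 34.0 to 68.4 TPM. *Ldh*, lactate dehydrogenase, had 3.08, 5.17, 14.6, 5.37 and 4.28 TPM, below *PyK* in 5 of 5 samples by at least 10.2 times. *Tps1*, which makes trehalose, and *Hex-C* were listed at 0 in all 5, and *Zw*, the first step of the pentose phosphate pathway, had a mean of 0.064 TPM.

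**Figure D3:**
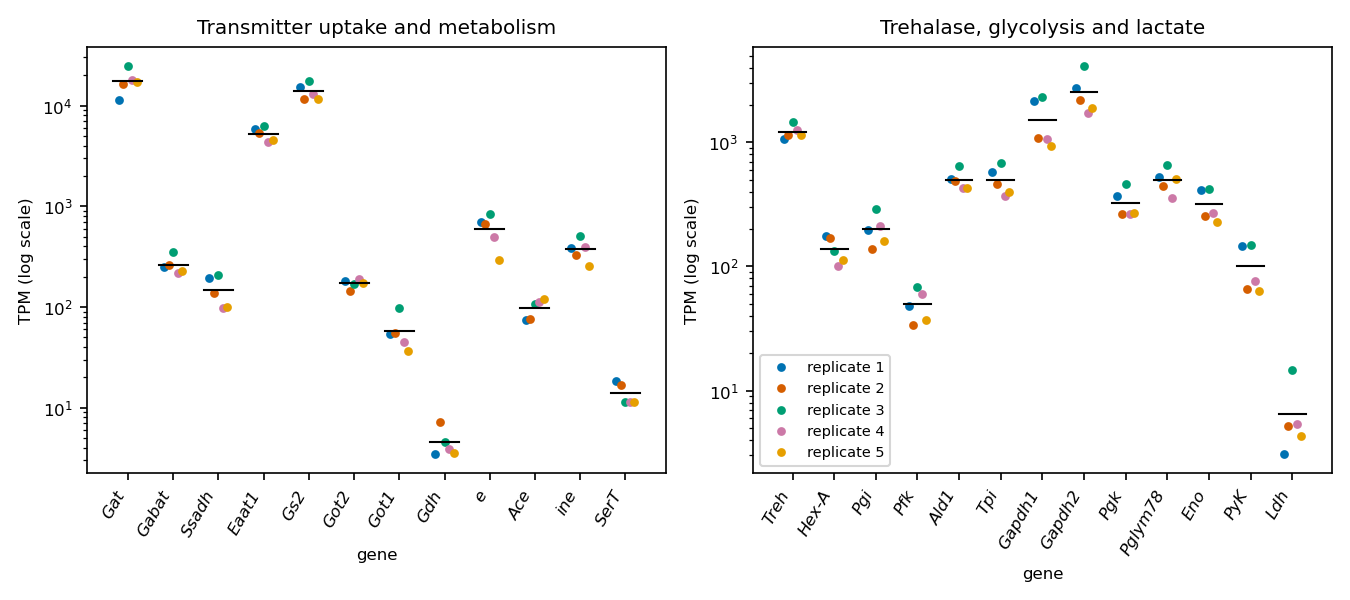
TPM on a log axis of genes of transmitter uptake and metabolism (left) and of trehalase, glycolysis and lactate (right), with a point for each of the 5 uninjured replicates and a black line at the mean. *Gat*, *Gs2* and *Eaat1* lie at 4349 TPM or more while *Gdh* lies at 3.47 to 7.25 TPM, and glycolytic genes lie between 34.0 and 4092 TPM while *Ldh* lies at 3.08 to 14.6 TPM.

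Of 17 redox enzymes and carbonic anhydrases 15 (88.2%) were detected, against 40.5% of all nuclear protein-coding genes. *GstE12*, a glutathione transferase, had 1878, 1349, 2016, 1157 and 1189 TPM. The cytosolic superoxide dismutase *Sod1* had 1697, 879, 1545, 1567 and 1748 TPM, replicate 2 being the low sample. *Sod3*, the secreted form, had 1439 to 2665 TPM, and *Sod2*, the mitochondrial form, had 145 to 284 TPM. *Prx5*, a peroxiredoxin, had 504 to 1002 TPM, but all of its exonic bases are shared with another annotated gene, so its level is uncertain. In lipid metabolism, *wun2*, a lipid phosphate phosphatase, had 1128, 837, 1319, 1137 and 1025 TPM, about 14.8 to 21.6 times the level of its relative *wun*. *Desat1*, a fatty acid desaturase, had 185 to 307 TPM. The synthetic enzymes *FASN1* and *ACC* had means of 4.98 and 4.19 TPM.

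The listed receptors were detected about as often as genes at large. Of 103 receptors in the table, 43 (41.7%) reached a TPM of at least 1 in all 5 samples, near the 40.5% of all nuclear protein-coding genes, and 10 (9.71%) were listed at 0, against 28.5% of those genes. A listing at 0 was rarer for longer genes, as given below, and length was not matched in this comparison. The median of the mean TPM of the receptors was 1.33, against 1.06. Their summed level was 0.109% to 0.140% of TPM, and only *Dscam1* and *wgn* had a mean of at least 100 TPM. The highest gene held 12.2% of the level of the list, so that, unlike the transporters, no single receptor dominated.

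Of 16 receptors for amines, 3 (18.8%) reached a TPM of at least 1 in all 5 samples, against 40.5% of all nuclear protein-coding genes. *Dop1R1*, a dopamine receptor, had 7.23, 11.8, 2.89, 18.8 and 22.1 TPM, and *Octbeta2R*, a beta-type octopamine receptor, had 8.55, 5.75, 5.25, 10.8 and 17.5 TPM. *5-HT7*, a serotonin receptor, had 2.55 to 3.87 TPM. The first of these was above the second in 3 of 5 samples. *Oct-TyrR* had a mean of 1.11 TPM and *Oamb* was listed at 0 in all 5.

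Of the other G protein-coupled receptors, *Cirl*, a latrophilin, had 64.9 to 123 TPM, and *AdoR*, the adenosine receptor, had 7.93, 1, 13.8, 5.79 and 2.08 TPM, with 60.1% of its exonic bases shared with an antisense RNA. Of 12 listed transmitter-gated channels, 2 (16.7%) reached a TPM of at least 1 in all 5 samples, against 40.5% of all nuclear protein-coding genes. *GluClalpha*, a glutamate-gated chloride channel, was the higher, with 43.2, 61.8, 54.7, 52.7 and 62.0 TPM. The other was a subunit of nicotinic acetylcholine receptors, with 1.82 to 8.71 TPM. *Rdl*, a GABA-gated channel, had 0.69 to 5.7 TPM.

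Among receptor kinases, *htl*, a fibroblast growth factor receptor that astrocytes use as they grow into the neuropil, had 70.4, 66.2, 126, 50.3 and 71.5 TPM, replicate 3 being the high sample. Its ligands *pyr* and *ths* had means of 0.722 and 0.702 TPM. *Eph* followed at 29.1 to 64.3 TPM, and the TGF-beta type receptors *put*, *babo*, *tkv* and *sax* had means of 35.5, 29.5, 18.5 and 16.4 TPM. *InR*, the insulin receptor, had 6.17 to 19.8 TPM. *Pvr*, the PDGF and VEGF receptor named in the title of the study, had 0.5, 0.06, 0, 0.03 and 0 TPM, and of its ligands *Pvf1* was listed at 0 in all 5, *Pvf2* had 0.84 TPM in 1 sample and 0 in the rest, and *Pvf3* had 0.65 to 3.54 TPM. The fibroblast growth factor receptor *btl* and the epidermal growth factor receptor *Egfr* were listed at 0 in all 5.

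Adhesion, engulfment and immune receptors were detected in 20 of 34 cases (58.8%), against 40.5% of all nuclear protein-coding genes. *Dscam1*, an adhesion molecule of the immunoglobulin family, had 114 to 163 TPM, and *wgn*, a receptor of the tumour necrosis factor family, had 144, 136, 180, 143 and 92.6 TPM, while its relative *grnd* had a mean of 0.082 TPM. The engulfment receptors *crq*, a scavenger receptor, and *drpr*, Draper, had 68.0 to 154 TPM and 50.2 to 83.4 TPM, and *crq*, with 15.7% of its exonic bases shared with *ex*, was the higher in 5 of 5 samples. Of the peptidoglycan sensors, *PGRP-LE* had 36.2 to 68.5 TPM and *PGRP-LC* had 0.83 to 6.56 TPM. *N*, Notch, had 25.4 to 33.7 TPM and varied little between samples.

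The secreted proteins covered a wide range of levels. Of 94 in the table, 32 (34.0%) reached a TPM of at least 1 in all 5 samples, against 40.5% of all nuclear protein-coding genes, and 27 (28.7%) were listed at 0, close to the 28.5% of those genes. The median of their mean TPM was 0.605. *mfas*, a secreted protein of the midline fasciclin type, was the highest, with 1322, 823, 1455, 1344 and 1100 TPM. The ferritin chains *Fer2LCH* and *Fer1HCH*, which store iron, had means of 907 ± 150 (SD, n = 5) and 505 ± 122 (SD, n = 5), and the first was the higher in 5 of 5 samples without overlap. *Obp44a*, a member of the odorant-binding protein family, had 229 to 479 TPM, with 19.1% of its exonic bases shared with *Pabp2*. The lipocalins *NLaz* and *GLaz* had means of 34.8 and 2.38 TPM.

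Growth factors were detected in 13 of 42 cases (31.0%), against 40.5% of all nuclear protein-coding genes. *spi*, Spitz, an epidermal growth factor ligand that is made as a membrane precursor, had 814, 784, 939, 635 and 754 TPM. *rho*, the protease that cleaves Spitz, which was not on the lists and was chosen after its value was seen, had 1007, 1719, 2292, 1910 and 1764 TPM and was above *spi* in 5 of 5 samples. The next growth factor was *myo*, myoglianin, a TGF-beta ligand, with 120, 140, 291, 256 and 267 TPM, replicates 1 and 2 being the low samples. *gbb*, *mav* and *daw*, of the same superfamily, had means of 34.5, 29.2 and 19.2 TPM, and the chitinase-like factor *Idgf3* had 29.4 to 98.6 TPM. The cytokines *upd1* and *upd2* and the guidance factor *NetA* were listed at 0 in all 5, *upd3* had a mean of 0.296 TPM and *egr*, the fly tumour necrosis factor, had a mean of 2.85 TPM.

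Of matrix genes, *SPARC*, a collagen-binding protein, had 215 to 339 TPM, whereas the basement membrane collagens *Col4a1* and *vkg* had means of 3.89 and 2.77 TPM and the laminin chain *LanB2* was listed at 0. The metalloproteases *Mmp1* and *Mmp2* had 6.86, 7.49, 22.7, 7.63 and 3.97 TPM and 5.64 to 10.2 TPM. *Timp*, their inhibitor, with 15.7% of its exonic bases shared with *Syn*, had 25.4 to 38.8 TPM and was above both in 5 of 5 samples without overlap.

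Immune effectors were nearly all at 0. None of 16 reached a TPM of at least 1 in all 5 samples, against 40.5% of all nuclear protein-coding genes. Listed at 0 in all 5 were 12 (75%), against 28.5% of those genes. Among these 12 were *AttA*, *AttC*, *DptA*, *Drs*, *Dro* and *Mtk*, which encode antimicrobial peptides. *DptB* had 6.67 TPM in replicate 1 and *Def* had 4.52 TPM in replicate 5, and both were listed at 0 in the other 4 samples. A listing at 0 was also frequent for short genes. Of nuclear protein-coding genes with at most 300 exonic bases, 97.5% (78 of 80) were listed at 0 in all 5 samples. The share was 74.1% at 301 to 500 bases, 51.8% at 501 to 1000, 30.6% at 1001 to 2000, 14.9% at 2001 to 4000 and 4.41% above 4000 bases. The ribosomal protein gene *RpL39*, with 288 exonic bases, and the proteasome gene *Prosalpha1*, both of which every cell uses, were listed at 0 too, as was *mt:ATPase8*. A listing at 0 is therefore given here as such and is not read as absence. *CecA1*, *CecC*, *DptA*, *Drs* and *Mtk* have 268 to 496 exonic bases, whereas *Egfr* has 6947 and *Gli* 4468.

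**Figure D4:**
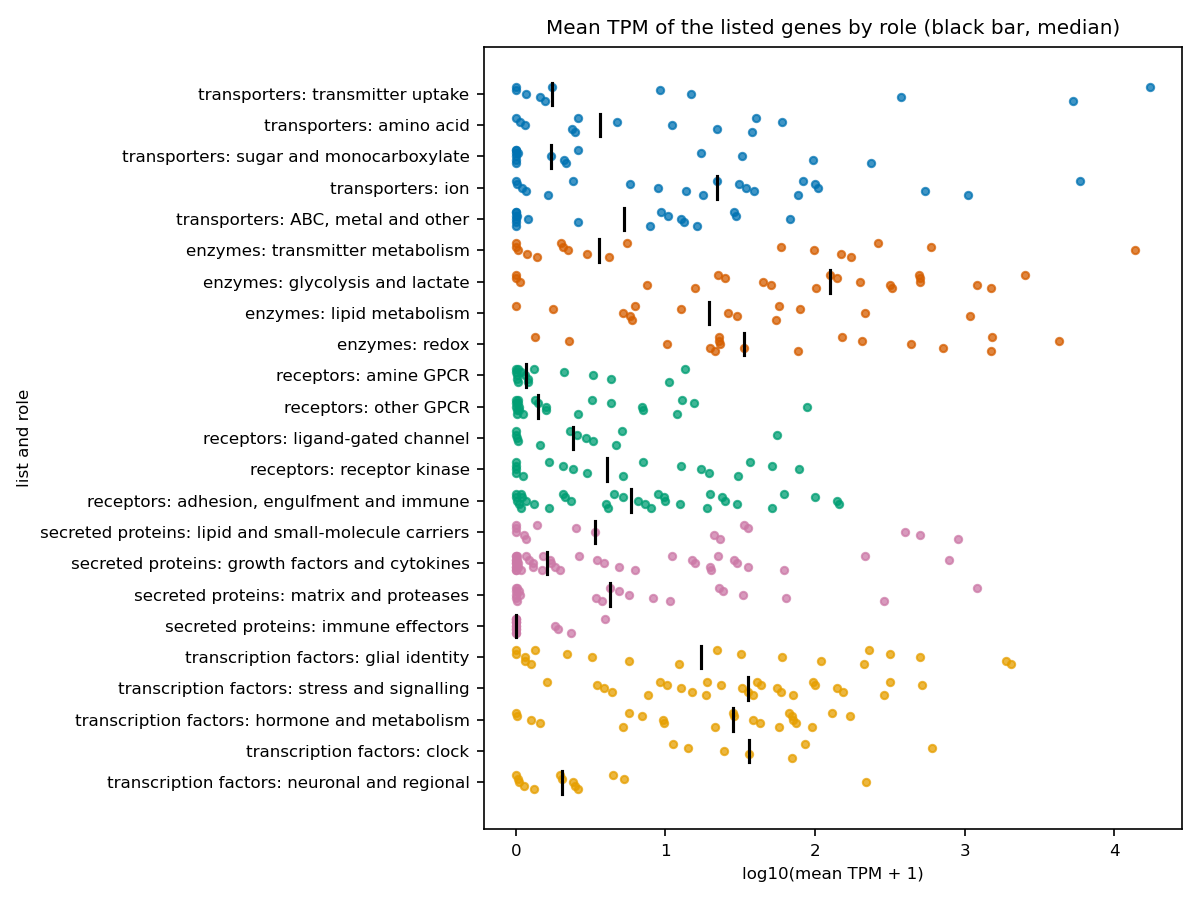
Mean TPM over the 5 uninjured samples, as log10(mean TPM + 1), of each listed gene (points), by list (colours) and role (rows), with the median of each row as a black bar. Glycolysis has the highest median at 124 TPM, immune effectors have a median of 0, and every receptor lies below 144 TPM.

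Among the role lists, that of transcription factors had the second highest share detected, after that of enzymes. Of 89 in the table, 62 (69.7%) reached a TPM of at least 1 in all 5 samples, against 40.5% of all nuclear protein-coding genes. Listed at 0 were 3 (3.37%), against 28.5% of those genes. A listing at 0 was rarer for longer genes, as given above, and length was not matched here. The median of the mean TPM of the listed factors was 20.3. Many of the listed genes are widely expressed regulators, and no comparison with other cell types was made.

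*repo*, the glial homeodomain gene, had 2800, 1705, 1408, 1977 and 2292 TPM, with a mean of 2036 ± 538 (SD, n = 5), and *pros* had 1900, 1333, 2413, 2008 and 1725 TPM, with a mean of 1876 ± 395 (SD, n = 5). Together they held 41.3% of the level of the list, and *repo* was above *pros* in 3 of 5 samples. *pros* was above *Pdp1*, the next gene, in 5 of 5 samples without overlap. In replicate 3, which was the highest for most of the leading genes, *repo* was the lowest of the 5. Of other genes placed under glial identity in the list, *hth* (323 to 616 TPM), *zfh2* (218 to 464 TPM), *lola* (192 to 289 TPM) and *pnt* (136 to 287 TPM) were the highest. That placing was a choice made for the list, and no comparison with neurons was made. Of the exonic bases of *zfh2*, 18.7% are shared with *Tdg*. *gcm*, which starts glial fate in the embryo, had 0.76 TPM in 1 sample and 0 in the rest, and *gcm2* was listed at 0 in all 5.

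Regulators of stress and signalling were detected in 23 of 27 cases (85.2%), against 40.5% of all nuclear protein-coding genes. *sima*, the fly hypoxia-inducible factor, had 398, 426, 624, 671 and 451 TPM, *cnc*, the fly Nrf2, had 210 to 377 TPM, and *yki*, the effector of Hippo signalling, had 233 to 328 TPM. The AP-1 subunits *Jra* and *kay*, the fly Jun and Fos, had 77.5, 104, 103, 105 and 103 TPM and 63.2, 56.2, 104, 86.7 and 43.1 TPM. *Jra* was above *kay* in 4 of 5 samples. Of the immune regulators *dl* had 41.3 to 71.0 TPM, and *Dif* and *Rel* had means of 22.5 and 9.22 TPM.

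All 7 clock genes reached a TPM of at least 1 in all 5 samples, against 40.5% of all nuclear protein-coding genes. *Pdp1* led with 635, 487, 510, 616 and 761 TPM, *Clk* had 60.4 to 112 TPM, *tim* had 55.4 to 93.2 TPM, *vri* had 22.3 to 53.1 TPM, and *per* had 4.4 to 16.1 TPM, below *tim* in 5 of 5 samples. The time of day of the dissections is not given in the sources used here. Of nuclear receptors and metabolic factors, the sugar sensors *bigmax* (110 to 175 TPM) and *Mondo* (49.0 to 111 TPM), their relative *Max* (118 to 219 TPM, with 30.1% of its exonic bases shared with *Bet1*), and *Hnf4* (53.6 to 83.2 TPM) were among the highest. The genes placed under neuronal or regional identity in the list were mostly low, with a median of 1.02 TPM, except *fru*, Fruitless, which had 183 to 248 TPM.

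Families chosen by symbol were also uneven. Of 51 odorant-binding protein genes, 2 reached a TPM of at least 1 in all 5 samples, *Obp18a* (426 to 879 TPM) and *Obp44a*, and 42 were listed at 0 in all 5. Of 84 cytochrome P450 genes 22 were detected, led by *Cyp12e1* (408 to 693 TPM), *Cyp28a5* and *Cyp4g15*. Of 8 innexins, the subunits of gap junctions, 3 were detected, with *Inx2* at 595 to 769 TPM, *ogre* at 388 to 770 TPM and *Inx3* at 11.4 to 16.0 TPM. *Inx2* was above *ogre* in 4 of 5 samples. Of 34 tetraspanins 11 were detected, and of 35 glutathione transferases 16. For these families and those below, the share over all nuclear protein-coding genes was 40.5% (5602 of 13848). The counts of innexins, tetraspanins and glutathione transferases lay near that share and are given as description only.

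Chemoreceptor families were close to 0, with 1 of 60 odorant receptors, none of 60 gustatory receptors and 1 of 66 ionotropic receptors detected. The exception among ionotropic receptors was *Ir76a*, at 18.5 to 24.0 TPM, with 14.1% of its exonic bases shared with *CG14102*. Of 31 Rab GTPases 18 were detected, led by *Rab7*, of late endosomes, with 403 to 809 TPM. Cytosolic ribosomal protein genes took 1.50% ± 0.26 (SD, n = 5) of TPM, with 76 of 85 detected and a median of 87.3 TPM, and the nuclear genes of the respiratory chain and ATP synthase took 1.06% ± 0.153 (SD, n = 5). Of 6 actin genes, *Act79B* had 1798 to 2648 TPM, 8.14 to 13.0 times the level of *Act5C*, the main cytoplasmic actin, whereas *Act42A* had at most 0.3 TPM. The tubulin gene *alphaTub84B* had a mean of 2.72 TPM and *betaTub56D* had 46.9 to 70.5 TPM. The last families, from the respiratory chain on, were chosen after values were seen.

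The detected genes were spread over all chromosome arms except the Y chromosome. The share of protein-coding genes detected in all 5 samples was 36.6% on 2L, 40.0% on both 2R and 3L, 40.9% on 3R and 44.8% on the X chromosome. On the small chromosome 4, which holds *Gat*, it was 77.2%, or 61 of 79 genes. None of 23 genes of the Y chromosome was detected. Over 5602 detected nuclear protein-coding genes, Spearman's rho of exonic length with mean TPM was -0.09, a description over genes in a unit that is already divided by length.

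The spread between replicates was widest for low genes and did not narrow further above 1000 TPM. The median coefficient of variation (CV, the SD divided by the mean) was 0.60 for 3146 nuclear genes with a mean of 1 to 10 TPM, 0.30 for 3552 genes with 10 to 100 TPM, 0.22 for 684 genes with 100 to 1000 TPM and 0.23 for 66 genes above that. Among 2973 genes with a mean of at least 20 TPM, 1636 stayed within a 2-fold range over the 5 samples. That range is of each gene between samples and does not set the size of a difference between genes within a sample. The order of neighbouring genes was judged by overlap of their ranges and by the number of samples in which it held.

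The least variable of these were *Pif1B*, *nsl1*, *eEF1beta*, *Bruce* and *RIC-3*, with CVs of 0.030 to 0.048. *Pif1B* had 67.1, 65.5, 62.1, 63.6 and 65.2 TPM, with 99.9% of its exonic bases shared with *Pif1A*, and *eEF1beta*, a translation factor, had 101 to 114 TPM. The most variable was *CG14989*, with 1.55, 0, 3.67, 356 and 0.06 TPM, so that its mean rested on replicate 4. Next came the pseudogene *CR43697* and 3 noncoding genes, *lncRNA:CR44221*, *scaRNA:MeU5-C46* and *lncRNA:CR32368*, of which the last had the highest level, with 203, 3.27, 226, 701 and 723 TPM. The astrocyte markers had CVs of 0.31 (*alrm*), 0.27 (*Gat*), 0.18 (*Gs2*) and 0.15 (*Eaat1*).

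**Figure D5:**
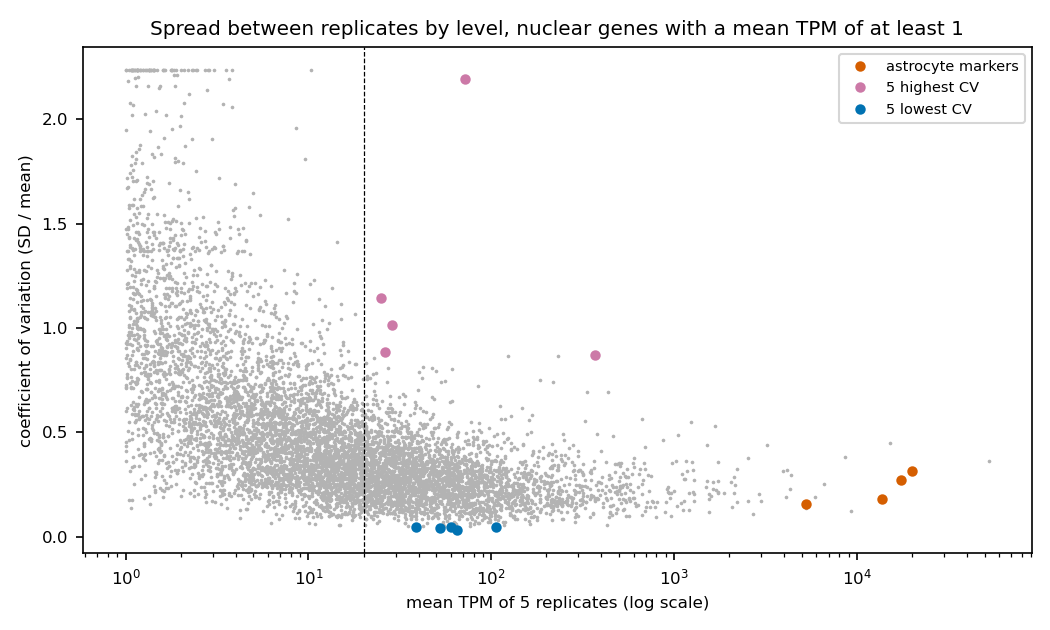
Coefficient of variation over the 5 uninjured replicates against mean TPM on a log axis, for nuclear genes with a mean of at least 1 TPM (grey). The dashed line marks 20 TPM. The 4 astrocyte markers (orange) have CVs of 0.15 to 0.31, the 5 lowest CVs above the line (blue) are 0.030 to 0.048, and *CG14989* is the highest (pink) at 2.20.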

How the data were processed

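The study measured RNA of sorted fly astrocytes in 15 samples, and the 5 that the labels call uninjured were used here. The TPM values are those that the authors deposited, with 2 decimals. Their methods name Trimmomatic 0.39 for trimming, HISAT2 for alignment to dm6, HTSeq for counting and DESeq2 1.30.1, and their processing notes also name STAR 2.6.0a, RSEM 1.3.1, FastQC 0.11.7 and R 4.0.0. Which tool made TPM and whether counting used strand are not given in the sources used here, so the share of exonic bases that a gene shares with another, on either strand, is given for the main cases. Of 192 named genes with a mean above 0, 27 share at least 10%. The replicates are described by the study as biological.

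From TPM, the mean, SD, range, CV and rank of each gene over the 5 samples were computed with Python 3.11.15, NumPy 2.4.6 and pandas 2.3.3, and figures were drawn with matplotlib 3.10.9. Computation of ranks and CVs was tested on simulated data. A gene was called detected at a TPM of at least 1 in all 5 samples. With a single group there is nothing to test between groups, and an exact sign-flip test of 5 paired values cannot go below p = 0.0625, so no p-value is given. Genes next to each other in level were compared by whether their ranges overlap and in how many of 5 samples the order held.

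Symbols, positions and exons came from the BDGP6.54 annotation, in which 17398 of 17509 identifiers had a symbol. The markers and the gene lists (transporters, enzymes, receptors, secreted proteins and transcription factors, 438 genes) were chosen with earlier results of these data known, and 5 listed genes had no match by identifier and are not analysed here. The rule for naming genes took the 30 highest nuclear genes, the 4 astrocyte markers, in each role the 3 highest genes, those with at least 1 in 10 of the highest mean and those listed at 0, the 5 highest and 5 lowest CVs at a mean TPM of at least 20, and the 3 highest of each symbol family. Of the 282 genes it took, 155 are named in the text and the rest enter the counts only. Other listed genes were named for their known role in a pathway. They, and *rho*, *fln*, *Act5C*, *Act42A*, *alphaTub84B*, *betaTub56D*, *RpL39*, *Prosalpha1* and *mt:ATPase8*, which were on no list, were chosen after their values were seen. Alternatives were other thresholds, medians, geometric means, pseudocounts, removal of the mitochondrial genome, median-of-ratios size factors, and leaving out each replicate.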

Additional observations from a re-analysis of the deposited data

Results flagged for a closer look

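In 32 of 203 values or genes examined, 1 of the 5 samples lay far from the other 4 by Dixon's ratio, where chance alone flags about 1 in 20. That share is no yardstick for the count, since a gene above 0 in a single sample has the largest ratio possible by construction and *CG14989* was named for its spread. Many of the values were of low genes. In 12 genes a single sample was above 0 and the other 4 were listed at 0, namely *Gad1* (9.98 TPM), *DptB* (6.67), *Def* (4.52), *ple* (1.96), *upd3* (1.48), *Pvf2* (0.84), *DAT* (0.8), *gcm* (0.76), *Zw* (0.32), *Act42A* (0.3), *Hdc* (0.17) and *ninaE* (0.13).

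Replicate 3 was the outlying high sample in 10 of the 32. These were the summed share of the astrocyte markers (7.83% of TPM), that of the receptors (0.140% of TPM), *crq* (154 TPM), *htl* (126), *Desat1* (307), *Ent1* (105), *Mmp1* (22.7), *Ldh* (14.6), and the low genes *Zw* and *ninaE* given above. The mitochondrial share of TPM was the lowest in this sample, and its part in these values was not tested gene by gene.

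Replicate 4 was the high sample for *CG14989* (356 TPM), *moody* (29.9), *wrapper* (6.02) and *grnd* (0.32). The first had at most 3.67 TPM in every other sample. Replicate 1 was the high sample for *nrv3* (77.5 TPM), *ACC* (6.2), *Gs1* (5.12) and *Pvr* (0.5) and the low sample for *Jra* (77.5 TPM). In replicate 2, *Gdh* was high (7.25 TPM) and *Sod1* was low (879 TPM), and in replicate 5 *bigmax* was high (175 TPM).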

How the results depend on the processing

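The number of genes detected in all 5 samples was 5803, and it was 3272 when a TPM of at least 10 was required, 4259 at 5, 6685 at 0.1, 7028 when 3 of 5 samples sufficed and 5875 to 6000 without 1 replicate. Removal of the mitochondrial genome raised every list share, to 9.88% for astrocyte markers, 5.58% for transporters, 5.93% for enzymes, 0.208% for receptors, 0.853% for secreted proteins, 1.68% for transcription factors and 0.167% for markers of other cells. It moved the mean TPM of 161 of 191 named genes by more than 1 SD, while the order of genes within a sample does not depend on it. Medians, geometric means with a pseudocount of 1 or 0.1 and size factors moved none of 192 named genes by more than 1 SD. For medians that outcome was fixed in advance, since a median cannot lie more than 1 SD from its mean. *CG14989*, with a mean of 72.2 TPM and a median of 1.55 TPM, still counted as not moved. The 30 highest nuclear genes were the same 30 under medians, geometric means and size factors. Without replicate 1, and likewise without replicate 3, 29 of the 30 were kept. Leaving out 1 replicate moved the mean of 21 of 192 genes by over 1.5 times. Of these, 3 had a mean of at least 10 TPM, *CG14989* with 1.32 TPM without replicate 4 against 72.2 TPM with it, and, without replicate 5, *lncRNA:CR44221* with 18.2 against 28.6 TPM and *CR43697* with 14.5 against 25.0 TPM. Of the 10 most and least variable genes, 6 were kept with a filter at a mean of 5 TPM, 5 with no filter and 8 with the SD of log2(TPM + 1), and the 5 least variable were kept in each of these. No paired analysis was possible because a single group was described and no result comes from a test. The TPM table does not give the reads behind each sample, so a low or 0 value has no counting interval.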

Other observations

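Heat shock genes, which the role lists did not hold, took 0.073% to 0.114% of TPM. Of these, 13 of 25 were detected in all 5 samples, against 40.5% of all nuclear protein-coding genes. *Hsp83*, a chaperone present in unstressed cells, had 265, 217, 289, 398 and 358 TPM. V-ATPase genes, of the pump that acidifies lysosomes and vesicles, took 0.168% to 0.256% of TPM with 16 of 32 detected, and *VhaM9.7-b* led with 338, 334, 485, 601 and 747 TPM. These genes were chosen after their values were seen, and no comparison with another group was made.

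Among noncoding nuclear genes, *lncRNA:roX1*, an RNA of the male dosage compensation complex, had 1506, 1314, 1262, 2040 and 2000 TPM, second to *lncRNA:Hsromega*, and *asRNA:CR45161* had 289 to 502 TPM, with 77.5% of its exonic bases shared with *fln*. The sex of the flies behind these pools is not given in the sources used here. *Tet*, which acts on methylated bases in RNA and DNA of other species, and the histone gene *His4r* had 1419 to 2256 TPM and 899 to 2542 TPM, next to *repo* and *pros* in level.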
